A study of Mus musculus with 8 samples.

Results

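The Krüppel-like factors examined here were 10 mouse genes, Klf2, Klf4, Klf5, Klf6, Klf7, Klf9, Klf10, Klf13, Klf15 and Klf16. They were taken by name and not by a cut on any measured value, but with earlier results of these data known. Chromatin accessibility at each gene was read from 8 ATAC-seq peak lists of sorted retinal ganglion cells (RGCs), the neurons whose axons form the optic nerve. Any peak that overlapped the gene or the 10 kb on either side of it was included, on the mouse build GRCm38. Overlapping peaks (1 bp or more in common) were joined across lists, which gave 189914 regions, of which 80 lay in the 10 windows. A peak in ATAC-seq is a stretch of DNA that the transposase entered more often than its surroundings, and it is a measure of open chromatin, not of RNA.

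All samples came from adult C57BL/6J mice whose eyes received an AAV2 virus in the vitreous, whose optic nerve was crushed 2 weeks later and whose RGCs were sorted 3 days after the crush. The virus carried GFP (3 samples), Ezh2 (3 samples) or Ezh2-Y726D (2 samples), so that injury and viral transduction were common to all groups and no uninjured sample was compared. Ezh2 is the enzyme that places methyl groups on lysine 27 of histone H3, a repressive mark, and Y726D is a point mutation described as removing that activity. The cells were sorted on the surface protein Thy1, which T cells also carry, and nothing in the labels said whether a sample was 1 mouse or a pool.

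Krüppel-like factors are transcription factors with 3 zinc fingers at their C-terminal end that bind GC-rich and CACCC sequences, and they fall into activators and repressors. In RGCs and other central neurons, Klf6 and Klf7 are known to promote axon growth, whereas Klf4 and Klf9 are known to suppress it and rise after birth as the growth capacity of these neurons declines. Of the other members, Klf2 is known for keeping endothelial cells and T cells quiescent, Klf5 for proliferation of epithelial cells, Klf10 as an early gene induced by TGF-β, Klf15 for responses to glucocorticoids and metabolism, and Klf13 and Klf16 as repressors close in sequence to Klf9.

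Promoter sequence was held for 7 of the 10 genes (RefSeq, GRCm38.p6). The 250 bases directly before the start are printed for the 4 genes with opposed roles in axon growth. A peak lay over at least part of each stretch in all 8 lists, as it did for all 7 genes. For Klf7, a single peak covered the whole stretch in 6 of the 8 lists. Capitals mark the GC box GGGCGG or its reverse complement CCGCCC, to which Krüppel-like and Sp factors can bind. The stretches run 5′ to 3′ on the strand of the gene and are chr4:55532476-55532725 for Klf4 (minus strand), chr13:5861239-5861488 for Klf6 (plus strand), chr1:64121390-64121639 for Klf7 (minus strand) and chr19:23140976-23141225 for Klf9 (plus strand). The Klf7 start used here, at 64121389, lies inside the annotated gene, which reaches 64122345, so its stretch is within the gene. Distances from the Klf7 start are counted from this position.

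Klf4: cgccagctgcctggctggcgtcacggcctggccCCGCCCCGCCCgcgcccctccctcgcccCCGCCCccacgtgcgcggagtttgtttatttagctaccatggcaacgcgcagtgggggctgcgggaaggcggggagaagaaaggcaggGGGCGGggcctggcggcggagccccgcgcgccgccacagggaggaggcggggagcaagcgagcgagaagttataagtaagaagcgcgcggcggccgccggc

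Klf6: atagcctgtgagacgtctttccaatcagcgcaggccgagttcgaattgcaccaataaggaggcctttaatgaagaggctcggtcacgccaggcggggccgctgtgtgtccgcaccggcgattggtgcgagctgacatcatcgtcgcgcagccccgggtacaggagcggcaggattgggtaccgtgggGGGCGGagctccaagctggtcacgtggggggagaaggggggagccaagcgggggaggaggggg

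Klf7: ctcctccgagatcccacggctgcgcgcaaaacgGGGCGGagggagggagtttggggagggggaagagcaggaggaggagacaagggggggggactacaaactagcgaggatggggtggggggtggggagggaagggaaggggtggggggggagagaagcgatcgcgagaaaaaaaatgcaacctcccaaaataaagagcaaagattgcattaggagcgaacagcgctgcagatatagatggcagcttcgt

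Klf9: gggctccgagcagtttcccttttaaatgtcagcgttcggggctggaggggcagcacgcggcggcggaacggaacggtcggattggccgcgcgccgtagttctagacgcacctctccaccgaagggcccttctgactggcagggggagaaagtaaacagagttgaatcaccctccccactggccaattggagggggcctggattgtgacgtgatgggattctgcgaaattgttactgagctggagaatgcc

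Klf4 held 4 GC boxes on both strands together, Klf6 and Klf7 held 1 each, and Klf9 held 0. Over all 27025 promoters in the reference table, 32.9% held at least 1 GC box in a stretch of the same length. The CACCC box (CCACCC, either strand) occurred 3 times before Klf7 and in none of the other 3, against 27.7% of all promoters with a match. An AP-1 letter pattern (TGANTCA) was found once, before Klf9, and 6.87% of all promoters held it. Neither TGACGTCA (1.62% of all promoters) nor TATAAA (13%) was found in any of the 7 member promoters. GC content was 74.0% for Klf4, 64.8% for Klf6, 59.2% for Klf7 and 59.6% for Klf9, all above the median of 52% over all promoters. The strongest peak over the stretch had its summit 56 to 311 bases before the Klf4 start, 150 to 270 bases before the Klf6 start, 323 to 370 bases before the Klf7 start and 60 to 434 bases before the Klf9 start over the 8 lists.

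The 8 lists held 112939 to 135895 peaks each, and no file gave the number of reads. Between any 2 lists, 17 to 49 peaks had identical ends, so no list was a copy of another. Of 12 RGC markers, 11 or 12 had a peak within 1 kb of an end of the gene in every list. Markers of other cells differed between groups. T cell markers with a peak numbered 12, 12 and 14 of 14 in the GFP lists, 14 in each Ezh2 list, and 5 and 4 in the Ezh2-Y726D lists. Microglia and macrophage markers numbered 9, 7 and 11 of 14 with GFP, 11, 10 and 11 with Ezh2, and 2 and 3 with Ezh2-Y726D. Of 10 endothelial markers, 5 or 6 had a peak in every list, and Cdh5, Tie1, Egfl7 and Emcn had none in any. Rod markers numbered 7 to 9 of 10, Müller glia markers 9, amacrine markers 9 or 10 and bipolar markers 8 to 10 in every list. In sorted bulk samples, fewer cells with an open region and less open chromatin per cell cannot be told apart.

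Because lists of different length and depth were compared, the strength of a peak was expressed as its percentile. This was the rank of its fold over background among the peaks of its own list, in percent, with tied peaks given their mean rank. Across the genes, the strength of the region over the start differed much more between members than between groups. The plot of start regions shows this order. For Klf5, Klf10 and Klf16 no strand was held, so a region at each end of the gene was taken where there was one, and the lower end is the end with the smaller coordinate.

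**Figure D1:**
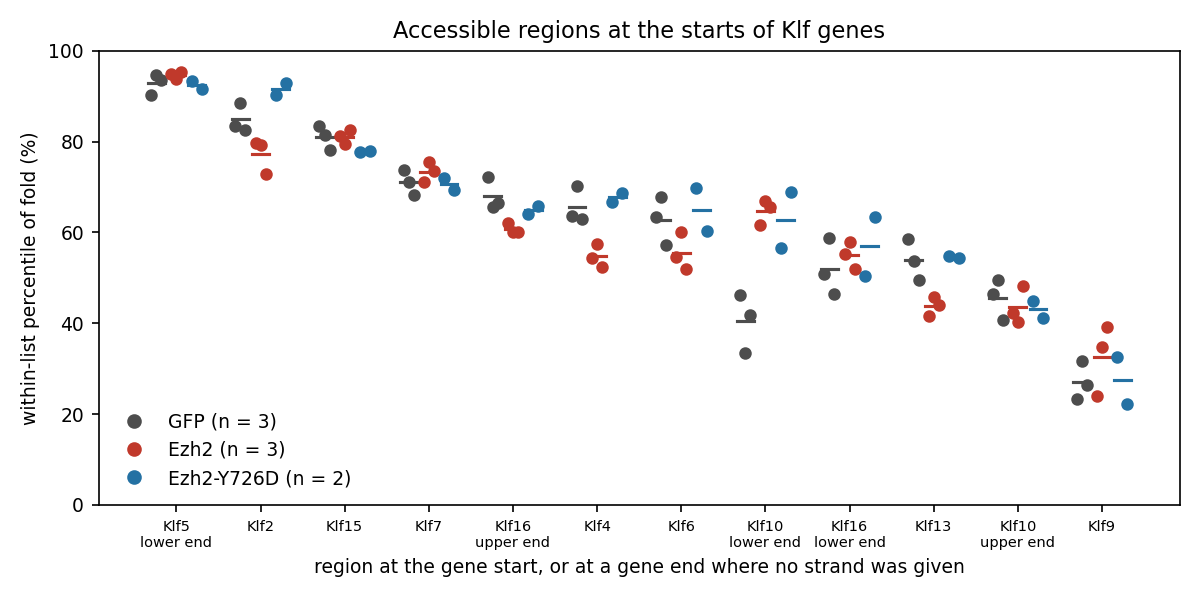
Within-list percentile of fold (vertical axis, percent) for the region over the start of each gene, or at a gene end where no strand was held, in order of the mean over 8 lists. Points are lists, short bars are group means (GFP and Ezh2 n = 3, Ezh2-Y726D n = 2), and the Klf5 points sit at 90.4 or higher whereas the Klf9 points sit at 39.2 or lower.

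The region at the lower end of Klf5 was the strongest, with a mean percentile of 93.4 ± 1.69 (SD, n = 8 lists). It was also the only region of Klf5 in any list. The Klf2 start (83.7 ± 6.55) and the Klf15 start (80.2 ± 2.22) followed, and their lists overlapped, with Klf2 above Klf15 in 5 of 8. The Klf7 start came next at 71.8 ± 2.35, below Klf15 in all 8 lists. Klf4 (62.1 ± 6.65) and Klf6 (60.6 ± 6.18) did not differ beyond their spread, with Klf4 the higher in 5 of 8 lists. The Klf13 start stood at 50.2 ± 6.01, and the Klf9 start was the weakest of all at 29.3 ± 6.17, below every other start or end region of the members in all 8 lists.

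Within the growth-promoting pair, the start of Klf7 varied little, with percentiles of 73.7, 71.0 and 68.3 with GFP, 71.2, 75.4 and 73.6 with Ezh2, and 72.0 and 69.4 with Ezh2-Y726D. The Klf6 start was at 63.3, 67.7 and 57.1 with GFP, 54.6, 60.1 and 51.9 with Ezh2, and 69.8 and 60.2 with Ezh2-Y726D. The GFP lists overlapped both other groups, and the Ezh2 lists lay just below the Ezh2-Y726D lists (limma, adjusted p = 0.420). Within the growth-suppressing pair, the Klf4 start (chr4:55532091-55533572) was at 63.7, 70.3 and 63.0 with GFP, 54.5, 57.4 and 52.4 with Ezh2, and 66.8 and 68.6 with Ezh2-Y726D. Every Ezh2 list lay below every list of the other groups there, but the difference did not pass the test across all regions. The Ezh2 minus GFP difference was -0.38 ± 0.17 (SE) in normal-score units, in which 1 is 1 SD of the ranks that a list gives to the 69493 regions with a peak in all 8 lists (limma, adjusted p = 0.250). The Klf9 start was at 23.3, 31.6 and 26.4 with GFP, 24.0, 34.7 and 39.2 with Ezh2, and 32.6 and 22.2 with Ezh2-Y726D, and these values overlapped.

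Among the other starts, Klf13 showed the order of Klf4, with 58.5, 53.7 and 49.4 with GFP, 41.5, 45.8 and 44.0 with Ezh2, and 54.7 and 54.3 with Ezh2-Y726D, and did not pass either (limma, Ezh2 minus GFP, adjusted p = 0.345). The Klf15 start lay between 77.6 and 83.4 in all 8 lists. The Klf5 lower end lay between 90.4 and 95.3. At the upper end of Klf16 the percentiles were 72.1, 65.6 and 66.4 with GFP, 62.1, 60.1 and 60.1 with Ezh2, and 64.1 and 65.7 with Ezh2-Y726D, and at its lower end they ran from 46.4 to 63.5. The upper end of Klf10 lay between 40.3 and 49.5 in all lists. Only 1 region over a start, that of Klf2, and 1 at a gene end, the lower end of Klf10, passed the test in any of the 3 comparisons.

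By the pattern of the start region over the 8 lists, after each gene's own mean was taken out, the 2 protein-coding genes most like Klf4 among 10604 compared were Vps54 and Cbln3, with root mean square differences of 0.0400 and 0.0434 normal-score units against a median of 0.266 over all genes. For Klf6 they were Rgl2 (0.0551) and Glrx5 (0.0602), with a median of 0.257. For Klf7 they were 2300009A05Rik (0.0287) and Dnajb2 (0.0291), with a median of 0.175. For Klf9 they were Peli2 (0.0527) and Irak1bp1 (0.0700), with a median of 0.222.

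The number of peaks in each window gave a second view. Klf7, which spans 92898 bp, held the most regions (21 of the 80), and Klf5 held 1.

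**Figure D2:**
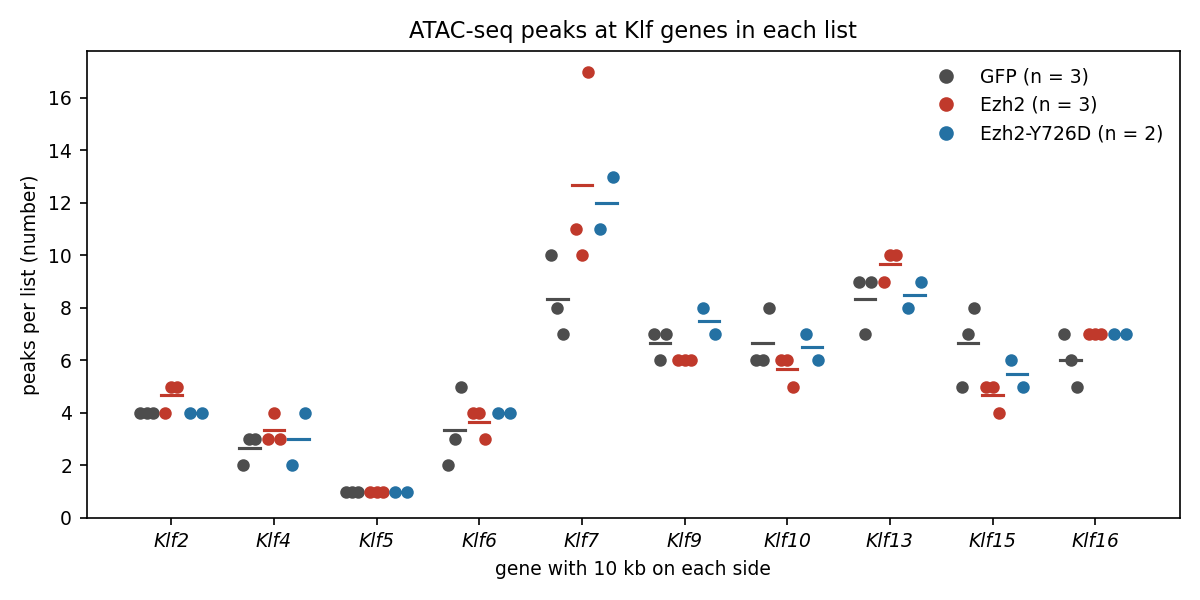
Number of peaks (vertical axis) in each list within each gene and 10 kb on either side. Points are lists, short bars are group means (GFP and Ezh2 n = 3, Ezh2-Y726D n = 2), and Klf7 spans 7 to 17 peaks whereas Klf5 has 1 peak in every list.

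Klf7 had 10, 8 and 7 peaks with GFP, 11, 10 and 17 with Ezh2, and 11 and 13 with Ezh2-Y726D. Both Ezh2-Y726D lists exceeded all GFP lists (two-sided exact permutation p = 0.2), and the Ezh2 lists met the GFP lists at 10 peaks (exact p = 0.2). The smallest p that these group sizes allow was 0.1. The longest list of all, Ezh2 replicate 3 with 135895 peaks, had the most Klf7 peaks, whereas the longest GFP list, with 133674 peaks, had the fewest. The part of list length in these counts was not tested. Klf9 had 7, 6 and 7 peaks with GFP, 6 in each Ezh2 list, and 8 and 7 with Ezh2-Y726D, so that the Ezh2 lists lay below the Ezh2-Y726D lists (exact permutation p = 0.1).

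Klf6 had 2, 3 and 5 peaks with GFP, 4, 4 and 3 with Ezh2, and 4 in each Ezh2-Y726D list, and Klf4 had 2, 3 and 3, then 3, 4 and 3, then 2 and 4 in the same order of groups. The counts of both overlapped between groups. Klf2 had 4 or 5 peaks in every list, Klf10 had 5 to 8, Klf13 had 7 to 10, Klf15 had 4 to 8 and Klf16 had 5 to 7, and none of these separated any 2 groups.

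Thus 1 of 10 members separated Ezh2-Y726D from GFP upward and 1 of 10 separated Ezh2 from Ezh2-Y726D downward. The same counts were made for 21883 protein-coding genes. Their Ezh2-Y726D lists lay above the GFP lists without overlap in 7.2% and below them in 10.3%. Their Ezh2 lists lay below the Ezh2-Y726D lists in 6.92% and above them in 17.9%, and above the GFP lists in 6.93% and below them in 2.12%. The members' counts were near or under these shares.

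Of the 80 regions, 39 had a peak in all 8 lists, 28 in 2 to 7 lists and 13 in a single list. The 39 regions were 48.75% of the members' regions, compared with 36.6% of all regions, and they could be tested by rank. Klf6 and Klf7 together had 27 regions, of which 7 were in all lists, and Klf4 and Klf9 had 12, of which 7 were in all lists. Klf6 had only its start region in all lists, so the shared regions of the growth-promoting pair are mostly those of Klf7.

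With Ezh2 compared to GFP, 3 of the 39 regions were higher by limma and none was lower (adjusted p under 0.05 over all 69493 regions tested). Over all tested regions 1.59% were higher and 2.84% lower at the same adjusted threshold. At an unadjusted p under 0.05, 3 of the 39 were higher and 4 lower, and the share over all regions was not computed. The 3 regions past the adjusted threshold lay in Klf9, before Klf2 and at the lower end of Klf10. The median difference over the 39 regions was -0.06 normal-score units, and 0.01 over all regions.

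The clearest difference lay inside Klf9, 10.63 kb after its start (chr19:23151559-23152154, 596 bp), within the gene body of 26904 bp and clear of any other annotated gene. No exon or intron annotation was held for it. Its percentile was 12.2, 13.2 and 21.4 with GFP, 66.5, 60.7 and 56.9 with Ezh2, and 18.9 and 33.9 with Ezh2-Y726D. The fold over background behind these was 3.27, 3.50 and 3.55 with GFP, 6.10, 5.43 and 4.98 with Ezh2, and 3.68 and 4.13 with Ezh2-Y726D. All Ezh2 lists were above all other lists on both measures, and the summits of the 8 peaks fell within chr19:23151742-23151798. The Ezh2 minus GFP difference was 1.33 ± 0.18 (SE) normal-score units (limma, adjusted p = 0.00764).

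The same Klf9 region was higher with Ezh2 than with Ezh2-Y726D, by 1.00 ± 0.20 (limma, adjusted p = 0.00967). Ezh2-Y726D minus GFP was 0.33 ± 0.20 (adjusted p = 0.344). The call against GFP held in all 17 alternative settings, with adjusted p from 0.00509 to 0.0341, and the call against Ezh2-Y726D held in 16 of 17 and was lost without Ezh2-Y726D replicate 1 (adjusted p = 0.108). T cell markers with a peak numbered 12 to 14 with GFP, 14 with Ezh2, and 5 and 4 with Ezh2-Y726D, and microglia markers 7 to 11, 10 to 11, and 2 and 3, so both differed in the comparison with Ezh2-Y726D. The mean percentile of the Klf9 region was 15.6 ± 5.05 (SD, n = 3) with GFP and 61.4 ± 4.82 (n = 3) with Ezh2. The part of these cells in either result was not tested.

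**Figure D3:**
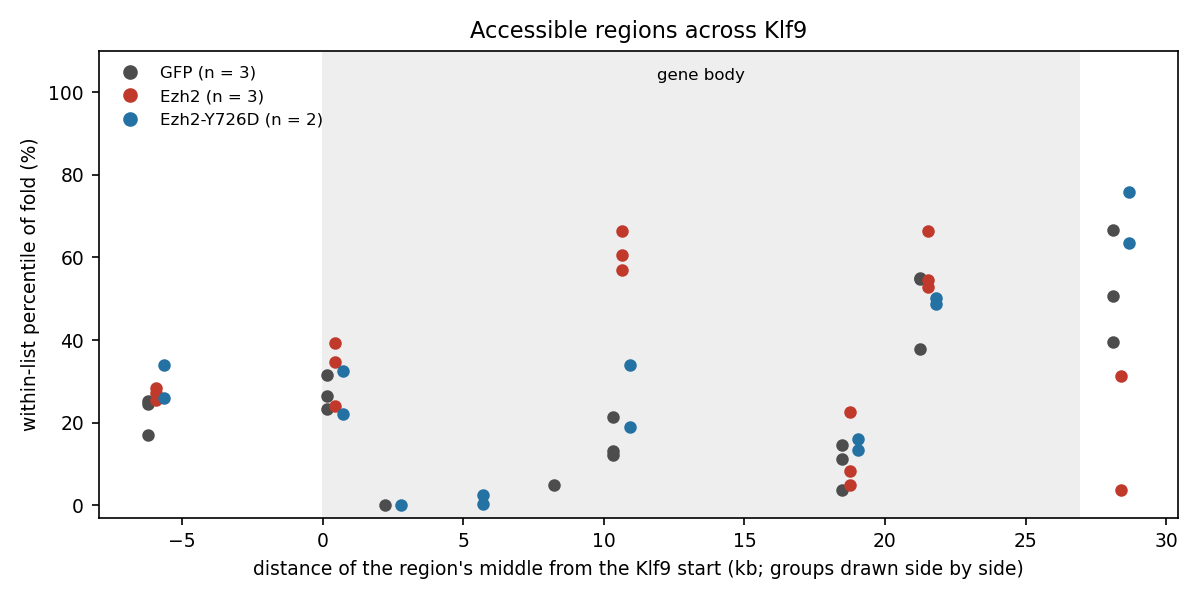
Within-list percentile of fold (vertical axis, percent) of each region in the Klf9 window against the distance of its middle from the Klf9 start (horizontal axis, kb). Each point is 1 list, the grey band is the gene body, and the 3 Ezh2 points 10.63 kb after the start lie between 56.9 and 66.5, above all other lists there.

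The other Klf9 regions did not share this difference. The 4 further regions in all lists, 5.94 kb before the start, at the start, and 18.76 and 21.53 kb after it, had Ezh2 minus GFP differences of 0.13, 0.13, 0.06 and 0.24 (limma, adjusted p from 0.621 to 0.929). A region 28.40 kb after the start, just past the end of the gene, had the opposite order, with percentiles of 50.6, 39.5 and 66.6 with GFP, no peak, 31.3 and 3.6 with Ezh2, and 75.8 and 63.6 with Ezh2-Y726D. Since 1 Ezh2 list lacked the peak, it was not tested by rank. It was named after its values were seen.

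Upstream of Klf2, 7.93 kb before the start (chr8:72310833-72311428), the percentile was 68.2, 59.9 and 73.9 with GFP, 79.2, 89.0 and 90.9 with Ezh2, and 79.8 and 75.6 with Ezh2-Y726D. The Ezh2 lists lay above the GFP lists, by 0.79 ± 0.19 (limma, adjusted p = 0.0489). This call stood at the threshold and was lost in 13 of 17 alternatives. At the Klf2 start (chr8:72318510-72320494) the order was different, with 83.5, 88.5 and 82.7 with GFP, 79.8, 79.3 and 73.0 with Ezh2, and 90.3 and 92.8 with Ezh2-Y726D. Ezh2 was lower than Ezh2-Y726D there by -0.74 ± 0.20 (limma, adjusted p = 0.0381), a call lost in 10 of 17 alternatives.

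At the lower end of Klf10 (chr15:38291438-38292486), the percentile was 46.1, 33.5 and 41.9 with GFP, 61.7, 67.0 and 65.7 with Ezh2, and 56.5 and 68.9 with Ezh2-Y726D. Both vectors carrying Ezh2 lay above GFP. For Ezh2 the difference was 0.70 ± 0.17 (limma, adjusted p = 0.0465, lost in 13 of 16 alternatives), and for Ezh2-Y726D it was 0.63 ± 0.19 (adjusted p = 0.0715). A region 7.41 kb below that end (chr15:38283676-38284423) was at 83.8, 88.5 and 91.6 with GFP, 77.4, 74.4 and 79.7 with Ezh2, and 88.2 and 97.0 with Ezh2-Y726D. It was lower with Ezh2 than with Ezh2-Y726D by -0.91 ± 0.24 (limma, adjusted p = 0.0330, lost in 9 of 17 alternatives).

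With Ezh2-Y726D compared to GFP, 1 of the 39 regions was lower by limma and none was higher. Over all tested regions 3.55% were higher and 4.65% lower at the same adjusted threshold. At an unadjusted p under 0.05, 3 of the 39 were higher and 2 lower, and the share over all regions was not computed. The median difference was 0.03 normal-score units over the 39 regions and -0.01 over all. The called region lay past the end of Klf7, 100.27 kb after its start (chr1:64020629-64021604), with percentiles of 82.0, 87.8 and 91.4 with GFP, 79.4, 81.3 and 75.0 with Ezh2, and 63.1 and 75.9 with Ezh2-Y726D. The Ezh2-Y726D lists lay below the GFP lists, by -0.81 ± 0.21 (limma, adjusted p = 0.0452), and the call was lost in 14 of 17 alternatives. In this comparison the groups differed in T cell markers (12 to 14 against 4 and 5) and in microglia markers (7 to 11 against 2 and 3), and their part in the result was not tested.

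With Ezh2 compared to Ezh2-Y726D, 1 region was higher and 2 were lower, the Klf9, Klf2 and Klf10 regions already described, against 7% higher and 6.96% lower over all tested regions. T cell markers (14 against 5 and 4) and microglia markers (10 to 11 against 2 and 3) differed in this comparison too, and their part in these calls was not tested.

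Without a test, the ranks of the 39 regions, taken as in limma among the regions in all lists, had no overlap between groups in 3 regions upward and 6 downward for Ezh2 against GFP (11.9% and 12.1% of all tested regions), in 10 upward and 4 downward for Ezh2-Y726D against GFP (19.6% and 21.8%), and in 9 each way for Ezh2 against Ezh2-Y726D (25.3% and 22.2%). By the percentiles over whole lists that are printed here, these counts were 5 upward and 8 downward (12.8% and 11.5% of all tested regions), 9 and 6 (21.1% and 20.4%), and 7 and 10 (24.8% and 22.6%).

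Peaks that were present in every list of 1 group and in no list of another made a second set. With Ezh2 compared to GFP, 4 of 80 regions were gained and none was lost, against 2.72% gained and 1.68% lost over all 189914 regions. With Ezh2-Y726D compared to GFP, 4 were gained and none was lost, against 4.77% and 4.72%. With Ezh2 compared to Ezh2-Y726D, 5 were present only with Ezh2 and 4 only with Ezh2-Y726D, against 8.96% and 6.14%.

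**Figure D4:**
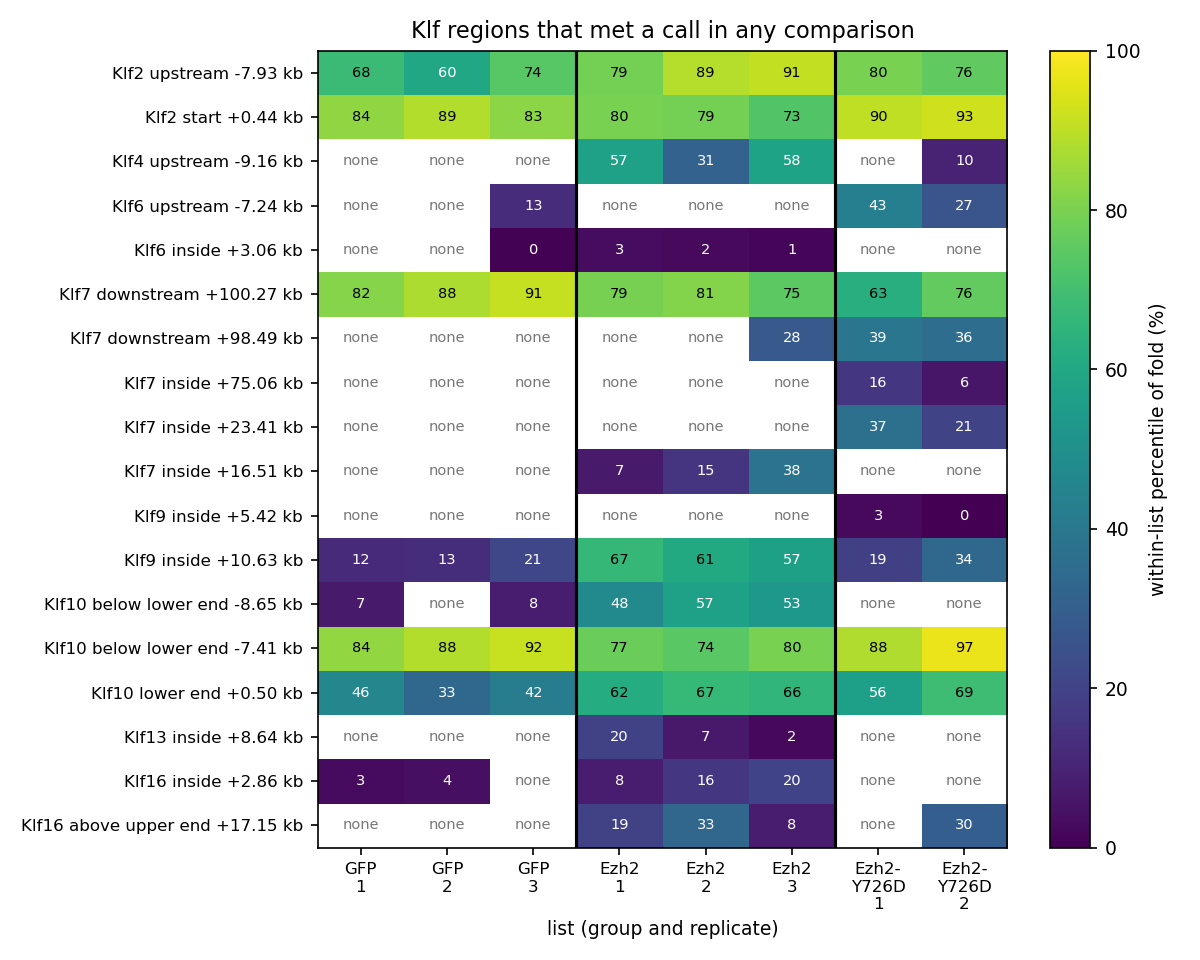
Within-list percentile of fold (color, percent, with the rounded value printed in each cell) of the 18 member regions that met a call in any comparison, in each of the 8 lists. White cells marked none had no peak in that list, the labels give the distance of the region's middle from the gene start (from the lower end for Klf10 and Klf16), and the row of Klf9 at +10.63 kb shows 57 to 67 in the Ezh2 lists and 34 or less elsewhere.

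Of the gained regions, the one before Klf4 was the strongest. It lay 9.16 kb upstream (chr4:55541176-55542086), where the noncoding genes Gm12506 and Gm34343 are also annotated. No GFP list had a peak there, the 3 Ezh2 lists had one at percentiles 57.4, 31.3 and 58.0, and 1 of the 2 Ezh2-Y726D lists had one at 10.0. The window of Klf4 ended 10 kb from the gene, so this region lay near its edge.

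In Klf7, a region 16.51 kb after the start (chr1:64104685-64105066) had a peak only in the Ezh2 lists, at 7.4, 15.3 and 38.3. Regions 75.06 kb (chr1:64046072-64046586, percentiles 15.7 and 6.1) and 23.41 kb (chr1:64097716-64098250, percentiles 37.0 and 20.6) after the start had one only in the Ezh2-Y726D lists. Past the gene end, at 98.49 kb (chr1:64022739-64023058), both Ezh2-Y726D lists (39.4 and 35.7) and 1 Ezh2 list (28.0) had a peak and no GFP list did. Klf7 thus gave 4 of the 8 regions gained over GFP with either vector, and it held 21 of the 80 regions.

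In Klf6, a region 7.24 kb upstream (chr13:5854081-5854412) was open in the 2 Ezh2-Y726D lists (43.0 and 26.5) and 1 GFP list (12.6), and no Ezh2 list had a peak there. A region 3.06 kb after the start (chr13:5864239-5864866) had a peak in the 3 Ezh2 lists (3.3, 2.4 and 1.4) and 1 GFP list (0.5) but in no Ezh2-Y726D list, and those peaks were among the weakest of their lists. In Klf9, a region 5.42 kb after the start (chr19:23146467-23146821) had a peak only in the Ezh2-Y726D lists, at 2.5 and 0.3.

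Among the other members, a region below Klf10 (chr15:38282342-38283291, 8.65 kb from its lower end) had peaks at 7.3 and 7.5 in 2 GFP lists, at 48.0, 57.1 and 53.2 with Ezh2, and in no Ezh2-Y726D list. Inside Klf16, 2.86 kb from the lower end (chr10:80569746-80570220), peaks were at 2.8 and 4.0 in 2 GFP lists and at 8.0, 15.8 and 20.0 with Ezh2, and no Ezh2-Y726D list had one. A region 8.64 kb after the Klf13 start (chr7:63930121-63930433) had a peak only with Ezh2, at 19.5, 6.8 and 2.3. These regions had no peak in the group in which T cell and microglia markers were fewest. The same was true of those in Klf6 at 3.06 kb and in Klf7 at 16.51 kb. The part of other cells in this was not tested. Above the upper end of Klf16 (chr10:80584007-80584535, within Abhd17a), peaks were at 19.3, 33.1 and 7.7 with Ezh2 and at 29.7 in 1 Ezh2-Y726D list.

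To compare the pair that promotes axon growth with the pair that suppresses it, the percentiles of their regions in all lists were averaged within each sample, 7 regions for each pair. No test was made, because the members were chosen for their roles with earlier results known. Ranked by fold, Klf6 and Klf7 regions stood above Klf4 and Klf9 regions in every list. The difference was 34.7, 40.4 and 37.8 percentile points with GFP, 25.4, 23.7 and 28.9 with Ezh2, and 31.4 and 29.7 with Ezh2-Y726D. The 3 groups did not overlap in this setting, and the Ezh2 lists had the smallest difference. Ranked by −log10 p, the differences were 3.12, 10.7 and 6.56 with GFP and 1.98, -0.112 and 4.72 with Ezh2. For Ezh2-Y726D they were 4.66 and 3.07, so all groups overlapped and 1 Ezh2 list turned negative. When Ezh2 replicate 1 was left out, the Ezh2 lists (25.0 and 33.1) overlapped both GFP (31.9 to 39.3) and Ezh2-Y726D (25.9 and 26.0). With each gene given the same weight, 1 Ezh2-Y726D list (32.0) fell among the GFP lists (30.5 to 34.9), and with windows of 3 kb or the gene body only the higher Ezh2-Y726D list (30.5) passed the lowest GFP list (29.6), so these 2 groups then overlapped.

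**Figure D5:**
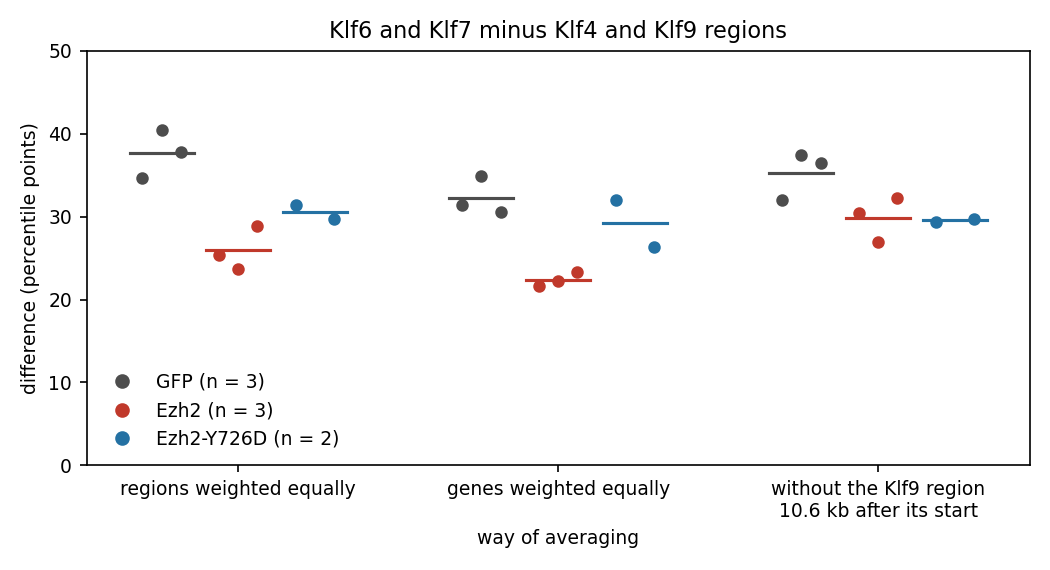
Mean within-list percentile of Klf6 and Klf7 regions minus that of Klf4 and Klf9 regions (vertical axis, percentile points), averaged over regions, averaged with each gene given the same weight, and without the Klf9 region 10.63 kb after its start. Points are lists and short bars are group means (GFP and Ezh2 n = 3, Ezh2-Y726D n = 2), and the 3 Ezh2 points at 23.7 to 28.9 in the first set lie at 26.9 to 32.2 in the third.

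In group means the difference was 37.6 ± 2.87 (SD, n = 3) with GFP, 26.0 ± 2.65 (n = 3) with Ezh2 and 30.6 ± 1.22 (n = 2) with Ezh2-Y726D. The suppressing pair had a mean percentile of 29.5 with GFP, 38.2 with Ezh2 and 32.5 with Ezh2-Y726D, whereas the promoting pair was at 67.1, 64.2 and 63.1. A single region carried much of this. Without the Klf9 region at 10.63 kb, the Ezh2 minus GFP value went from -11.6 to -5.43, the Ezh2 lists (30.5, 26.9 and 32.2) met the lowest GFP list (32.0), and Ezh2 minus Ezh2-Y726D turned from -4.57 to 0.307. Over the start regions alone, the difference was 20.5 ± 3.90 with GFP, 20.8 ± 3.46 with Ezh2 and 20.3 ± 1.29 with Ezh2-Y726D, so the groups overlapped.

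The rest of the family was counted the same way. Klf1, Klf3, Klf8, Klf11, Klf12, Klf14, Klf17 and Sp1 to Sp9 (16 genes) had 153 regions, 61 of them in all lists. None of the 61 passed limma for Ezh2 against GFP, compared with 1.59% higher and 2.84% lower over all tested regions. At an unadjusted p under 0.05, 6 were higher and 4 lower. None passed for Ezh2-Y726D against GFP either (3.55% and 4.65% over all), where 3 were higher and 6 lower unadjusted. The unadjusted shares over all regions were not computed. For Ezh2 against Ezh2-Y726D, 2 were higher and 3 lower by limma, compared with 7% and 6.96% over all tested regions. The higher ones were 27.99 kb after the Klf12 start (1.08 ± 0.28, limma adjusted p = 0.0324) and 5.28 kb before Sp2 (0.83 ± 0.21, adjusted p = 0.0282). The lower ones were 19.13 kb after the Sp2 start (-1.50 ± 0.26, adjusted p = 0.00544), at the lower end of Sp7 (-1.19 ± 0.26, adjusted p = 0.0155) and 6.92 kb after the Sp9 start (-0.95 ± 0.23, adjusted p = 0.0241). By presence, 2 of the 153 regions were gained and 2 lost with Ezh2 against GFP, 7 and 4 with Ezh2-Y726D against GFP, and 8 and 7 with Ezh2 against Ezh2-Y726D. Over all regions, in the same order, the shares were 2.72% and 1.68%, 4.77% and 4.72%, and 8.96% and 6.14%.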

How the data were processed

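ATAC-seq was done on 8 samples (GFP n = 3, Ezh2 n = 3, Ezh2-Y726D n = 2), grouped by their titles. The authors deposited 1 narrowPeak list per sample, called separately by MACS2 (with cutadapt, Bowtie2, SAMtools, Picard and deepTools on GRCm38, named in the submitters' processing notes; no version was given in the sources used here). Each deposited row holds the fold (a ratio of pileup to local background, column 7), −log10 p and −log10 q values and a score. Peak names carried tags for a mapping quality filter and removal of duplicates. No read totals were given, so the depth is unknown, and precision rests on the number of samples. The spacing of the most common folds gave an estimate of the background pileup in each list. It ran from 2.39 reads in Ezh2-Y726D replicate 1 to 3.74 in GFP replicate 3, and its part in the results was not tested. P-values measure the spread between samples, which the labels do not tie to single animals.

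Peaks sharing at least 1 bp were merged. For the tests, the folds of each list were ranked among the 69493 regions with a peak in all 8 lists, turned into normal scores and compared with limma 3.58.1 (R 4.3.3, Python 3.11.15), group as the only term, with Benjamini-Hochberg adjustment at 0.05. Printed percentiles are ranks over the whole list. Where a region held several peaks of a list, the highest fold was used. Peak counts were compared by two-sided exact permutation tests. A region was said to lie over a start where it touched the 250 bases before it or, with no strand, the 250 bp around a gene end. The steps were tested on simulated data. All 10 members were named, with every region that met a presence or limma call. The members, gene lists and tests were chosen with earlier results of these data known. Alternatives were lists of equal length, a −log10 q of at least 5, windows of 3 or 0 kb, a peak covering at least 0.5 of the region and ranks by −log10 p. Further ones were regions in at least 5 lists, fits of 2 groups, replicate blocks by titles or by peak names, and leaving out each sample. Ranks over the whole list in limma were added later. So were, for the comparison of the 2 pairs, leaving out the Klf9 region at 10.63 kb and giving each gene the same weight. RNA-seq of the study was not analysed here.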

Additional observations from a re-analysis of the deposited data

How the results depend on the processing

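Each region called by limma in the main setting kept its direction in every alternative in which it was tested. Some alternatives called other regions. With the replicate block by titles, 1 region was higher and 0 lower for Ezh2-Y726D against GFP. Without Ezh2 replicate 1, 2 were higher and 1 lower for Ezh2 against GFP. Ranks by −log10 p gave 2 higher and 0 lower for Ezh2 against Ezh2-Y726D. For Ezh2 against GFP, the 3 limma calls fell to 1, the Klf9 region, with peaks covering at least 0.5 of the region, with only the 2 groups fitted, under both replicate blocks and with ranks taken over the whole list (chosen after seeing the data), and to 1 to 3 when single samples were left out. The 4 presence calls fell to 2 with windows of 3 kb or the gene body only. For Ezh2-Y726D against GFP, the single limma call became 2 with a −log10 q of at least 5 or ranks by −log10 p, and 0 with windows of 3 kb or the gene body, a covering of at least 0.5, regions in at least 5 lists, only the 2 groups fitted, the replicate block by peak names or ranks over the whole list. It was 0 to 1 with single samples left out. The 4 presence calls became 1 with a −log10 q of at least 5, and 4 to 11 with single samples left out (9 without GFP replicate 3, 11 without Ezh2-Y726D replicate 1). For Ezh2 against Ezh2-Y726D, the 3 limma calls fell to 1 under the replicate block by peak names and were 1 to 4 with single samples left out. The 9 presence calls became 5 with a −log10 q of at least 5, and 9 to 14 with single samples left out.

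The growth-promoting minus growth-suppressing value for Ezh2 minus GFP (-11.6) was -4.59 with ranks by −log10 p, -5.43 without the Klf9 region (a setting chosen after seeing the data) and -15.2 to -5.76 with single samples left out. For Ezh2-Y726D minus GFP (-7.03) it was -3.99 with windows of 3 kb or the gene body and -2.91 with ranks by −log10 p, and -3.06 with each gene given the same weight (also chosen after seeing the data). For Ezh2 minus Ezh2-Y726D (-4.57) it was -7.32 with windows of 3 kb or the gene body, -1.67 with ranks by −log10 p, 0.307 without the Klf9 region and -6.08 to 3.09 with single samples left out. The value of 3.09 came without Ezh2 replicate 1, when the Klf9 region 28.40 kb after its start, which that list lacks, entered the mean. Other causes were not tested.

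Correlations between samples of different groups were taken over all tested regions on what remained after the group means were taken out. Samples with the same number in their titles had correlations from -0.0151 to 0.0478, and those with different numbers from -0.0482 to 0.0461. With 2 Ezh2-Y726D samples, the values of any other sample against them are equal and opposite. Those pairs therefore give no separate value for same and different numbers. By the numbers in the peak names, correlations at the same number were 0.00180 to 0.0478, and at different numbers -0.0482 to 0.0303. Whether samples with the same number were handled together was not tested, and the block counts above are given for completeness. Numbers inside the peak names run 2 and 3 for Ezh2-Y726D replicates 1 and 2. The lists lack read counts, so a missing peak could not be told apart from one just under the calling threshold.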
